A study of Mus musculus with 10 samples.

Results

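The transcripts described are those of 9 genes for the scaffold proteins of the postsynaptic density, the PSD-95 family genes Dlg2, Dlg3 and Dlg4, the SAPAP genes Dlgap1, Dlgap2 and Dlgap3, and the Shank genes Shank1, Shank2 and Shank3. The members were the probe sets that the platform annotation assigns to exactly 1 symbol, a gene of this set. There were 301 of them among 1256831 probe sets on the array, 48 under the symbol Dlg2 together with 8 under its older symbol B230218P12Rik, 31 for Dlg3, 26 for Dlg4, 39 for Dlgap1, 25 for Dlgap2, 20 for Dlgap3, 47 for Shank1, 30 for Shank2 and 27 for Shank3. Of the 301, 290 had a mean above the median of all probe sets and entered the tests, and the other 11 did not. The samples were amygdalae of 3-month-old mice on a C57BL/6 background, 5 arrays from neuropsin-/- mice, which lack the secreted serine protease encoded by Klk8, and 5 arrays from wild-type mice. RNA depleted of ribosomal RNA was hybridised to exon arrays, on which a probe set is a few probes for about 1 exon. Each array held RNA of 3 animals out of 15 per genotype, read here as 5 separate pools, and the p-values measure the spread between these arrays. The knockout line had been crossed back to C57BL/6 for 12 generations, and the labels do not say which exons of Klk8 were removed or which strain the mutation was made in.

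At glutamatergic synapses of the forebrain the receptors are held under the membrane by a stack of scaffold proteins. Proteins of the PSD-95 family bind the tails of NMDA receptors and of other membrane proteins through PDZ domains, SAPAP proteins (also called GKAP) bind the guanylate kinase domain of the PSD-95 family, and Shank proteins bind SAPAP and reach on to Homer and to the actin cytoskeleton. Dlg4 encodes PSD-95, Dlg2 encodes PSD-93, also called chapsyn-110, and Dlg3 encodes SAP102, the family member known from immature synapses. Neuropsin is known from work on the hippocampus and amygdala of mice as a protease that acts outside the cell at synapses, and the comparison of knockout with wild type asks how its loss changes transcript levels.

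The promoters that RefSeq places at the annotated starts of Dlgap1 and Dlg3 are shown because these genes, with Dlgap2, were the members whose knockout arrays all lay above the wild-type arrays, and because each has more than 1 annotated start, so that the probe sets of a gene need not all report the same transcript. RefSeq promoters were found for 6 of the 9 genes, with none for Dlgap2, Shank1 and Shank2. Each is given on the plus strand of GRCm38.p6 from 250 bases before to 50 bases after a start. Capitals mark CACGTG, the E-box of clock and related helix-loop-helix factors, which was the only match among these 4 promoters to the motifs searched on both strands.
Dlgap1, upstream start, chr17:69968823-69969122: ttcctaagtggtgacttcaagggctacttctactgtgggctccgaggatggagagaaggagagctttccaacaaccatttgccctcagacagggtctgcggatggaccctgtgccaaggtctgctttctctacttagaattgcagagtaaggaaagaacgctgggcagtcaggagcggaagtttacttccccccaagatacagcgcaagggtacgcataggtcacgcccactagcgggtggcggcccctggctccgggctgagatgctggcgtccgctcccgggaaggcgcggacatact
Dlgap1, downstream start, chr17:70561497-70561796: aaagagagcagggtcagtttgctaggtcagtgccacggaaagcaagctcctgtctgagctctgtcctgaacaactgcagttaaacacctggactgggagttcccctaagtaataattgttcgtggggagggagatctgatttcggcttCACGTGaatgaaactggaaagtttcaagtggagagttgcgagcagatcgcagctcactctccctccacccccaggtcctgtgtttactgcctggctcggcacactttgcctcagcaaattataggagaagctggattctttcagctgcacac
Dlg3, upstream start, chrX:100774245-100774544: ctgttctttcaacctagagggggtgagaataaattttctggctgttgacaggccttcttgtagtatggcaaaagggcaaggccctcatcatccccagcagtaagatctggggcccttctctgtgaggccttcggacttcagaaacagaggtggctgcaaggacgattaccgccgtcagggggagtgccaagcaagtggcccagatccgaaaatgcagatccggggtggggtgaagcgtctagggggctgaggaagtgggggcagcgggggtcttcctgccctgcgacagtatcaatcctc
Dlg3, downstream start, chrX:100777021-100777320: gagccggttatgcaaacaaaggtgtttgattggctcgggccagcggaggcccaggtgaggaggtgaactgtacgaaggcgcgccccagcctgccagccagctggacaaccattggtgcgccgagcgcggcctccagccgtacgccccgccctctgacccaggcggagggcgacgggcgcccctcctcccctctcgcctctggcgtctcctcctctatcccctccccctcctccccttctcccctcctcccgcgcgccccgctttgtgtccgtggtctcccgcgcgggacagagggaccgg
The E-box CACGTG was present in 7.15% of the 32851 promoters of this length in the table. The other motifs searched were the TATA box motif TATAAA, present in 13.6%, and the full cyclic AMP response element TGACGTCA, in 1.79%. The downstream Dlg3 promoter was 70.3% G and C with 28 CpG dinucleotides and the upstream one 56.7% with 9. For Dlgap1 the order was the other way, with 51.0% and 7 CpG at the downstream start and 57.7% and 15 CpG at the upstream start. Over all promoters the medians were 52.7% and 7. A match describes letters only, and nothing was measured at these promoters.

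All gene levels below are means of log2 values over the tested probe sets of a gene, and all differences are knockout minus wild type on the log2 scale. A gene level depends on its probes, so levels are compared between arrays and not between genes. Across genes, which are not independent of each other, the correlation of pairs of arrays was 0.958 to 0.987. Wild-type arrays 4 and 5 stood apart from the other 8 on the first principal component, at 20.5 and 23.5 against -14.2 to 7.45. Knockout arrays 4 and 5 came next, at 7.45 and 3.14, and the remaining arrays had negative values. On the second component, with 13.9% of the variance, the knockout arrays lay at 1.02 to 10.2 and the wild-type arrays at -15.9 to -1.46. The targeted gene Klk8 averaged 5.02 ± 0.29 on the knockout arrays and 5.17 ± 0.27 on the wild-type arrays over all its 9 probe sets (SD, n = 5 each), a difference of -0.15 (SE 0.18, exact permutation p = 0.413, two-sided), and the groups overlapped. Restricted to the 5 that passed the filter on low values, Klk8 differed by -0.39 (exact permutation p = 0.0476, two-sided, 0.00794 being the smallest possible), and with the median over all 9 by -0.61 (exact permutation p = 0.0794). Which probe sets lie in the removed part is not known here, and those outside it check nothing.

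No member passed the test at the gene level. Of all 16367 genes 0.0244% passed (limma, adjusted p under 0.05 in either direction), and the adjusted p-values of the 9 members lay between 0.693 and 0.999. Unadjusted limma p-values under 0.05 were found for 4 members, Dlgap1, Dlgap2, Dlg3 and Shank2, where 6.98% of all genes had such a value. The difference was above 0 in 7 of the 9 members, against 49.3% of all genes, with a median of 0.08 over the members and -0.0019 over all genes. Shank1 (0.0009, SE 0.09) and Dlg4 (0.01, SE 0.07) are counted in the 7 but lay near 0. The knockout arrays all lay above the wild-type arrays in 3 members, Dlg3, Dlgap1 and Dlgap2, as they did in 0.923% of all genes, and all below in none, against 0.623%. In dissected tissue a lower share of cells of a type and less RNA per cell cannot be told apart.

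**Figure D1:**
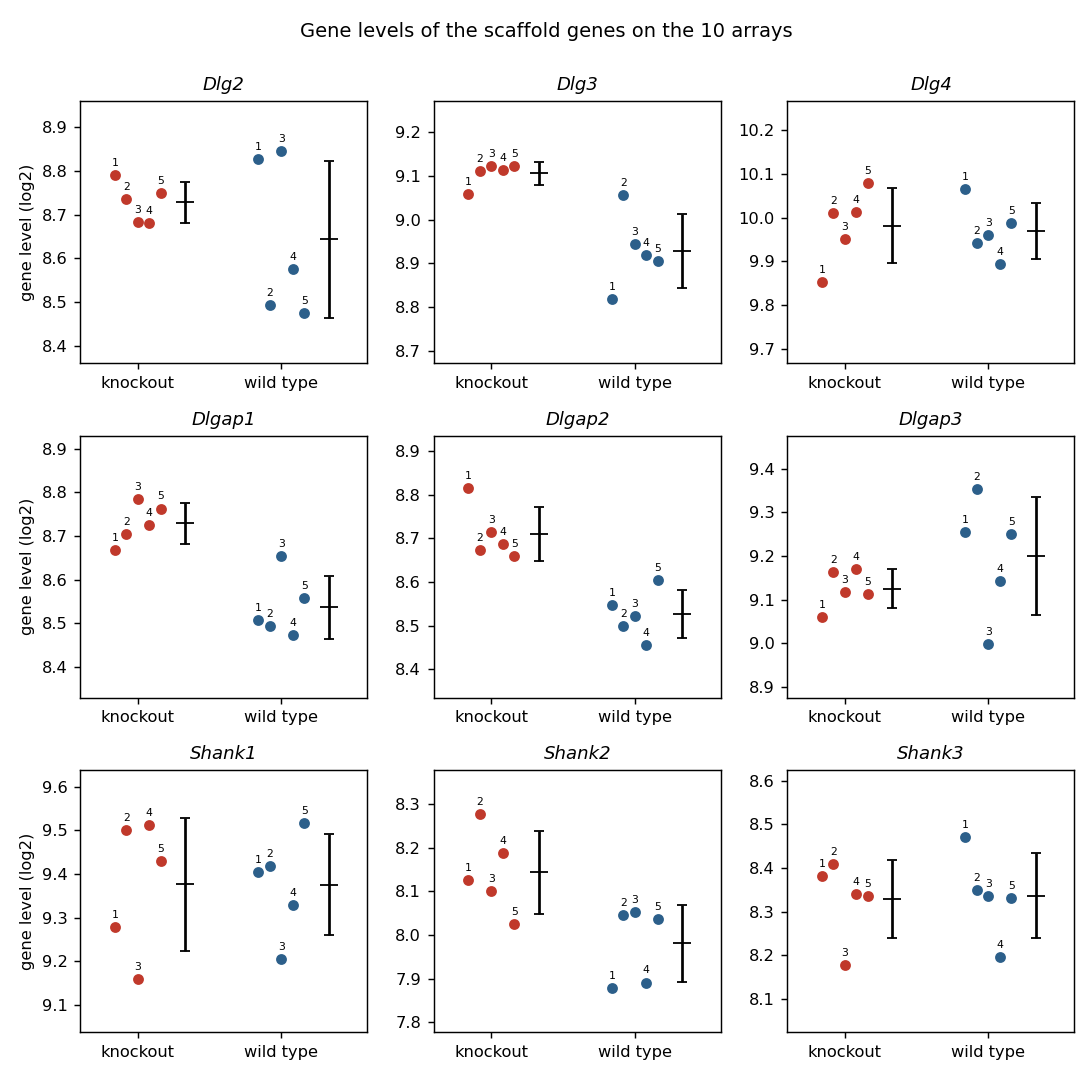
Gene level (log2) of each scaffold gene on the 5 knockout arrays (red, left) and the 5 wild-type arrays (blue, right), with array numbers and, beside each group, the mean and SD. All panels span 0.6 on the log2 scale; the groups are apart in Dlg3, Dlgap1 and Dlgap2 and overlap in the other 6 genes.

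Among the PSD-95 family genes, Dlg3 stood at 9.06, 9.11, 9.12, 9.11 and 9.12 on knockout arrays 1 to 5, against 8.82, 9.06, 8.94, 8.92 and 8.91 on wild-type arrays 1 to 5. The groups did not overlap, but only narrowly, with the lowest knockout array at 9.059 and the highest wild-type array at 9.056. The difference was 0.18 with an SE of 0.07, a 1.13-fold level with a 95% interval of 1.02- to 1.25-fold (limma adjusted p = 0.693). The knockout arrays were tighter than the wild-type arrays, with SDs of 0.03 and 0.09. Of the 28 tested Dlg3 probe sets 25 were higher and 3 lower in the knockout, with a median of 0.17. Among all tested probe sets with a gene name 53.8% were higher.

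Dlg2 stood at 8.79, 8.74, 8.68, 8.68 and 8.75 on the knockout arrays, against 8.83, 8.49, 8.84, 8.58 and 8.47 on the wild-type arrays. Wild-type arrays 1 and 3 lay above every knockout array and the other 3 below every knockout array, so the groups overlapped. The SD was 0.05 in the knockout and 0.18 in the wild type, the widest of the 9 members in the wild type. The mean difference of 0.08 (SE 0.09, limma adjusted p = 0.867) was 0.0055 when wild-type arrays 4 and 5 were left out, and with the median over probe sets in place of the mean it was -0.04. The 6 tested probe sets annotated under the older symbol B230218P12Rik carried part of that spread, with 7.15, 6.86, 6.95, 6.70 and 7.02 on the knockout arrays and 7.63, 6.56, 7.04, 6.67 and 6.59 on the wild-type arrays. The 48 probe sets annotated as Dlg2 gave a difference of 0.09 without them.

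Dlg4, the gene of PSD-95 itself, lay between 9.85 and 10.08 on the knockout arrays and between 9.89 and 10.07 on the wild-type arrays. The ranges overlapped almost fully, and the difference was 0.01 with an SE of 0.07 (limma adjusted p = 0.983). The 95% interval of the fold was 0.908 to 1.12, which overlaps that of Dlgap1, 1.03 to 1.26. No test was made between these genes. With the hypothalamic list mean described below as a covariate, the difference was 0.17 for Dlg4 and 0.15 for Dlgap1. The values of that covariate separate the genotypes, so the fit can hardly tell its part from that of genotype. No likeness or contrast between these genes is read from it. Of 25 tested probe sets 11 were higher and 14 lower.

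Of the SAPAP genes, Dlgap1 and Dlgap2 were higher in the knockout by nearly the same amount and Dlgap3 was slightly lower, with no test made between the genes. Dlgap1 stood at 8.67, 8.70, 8.79, 8.73 and 8.76 on the knockout arrays, against 8.51, 8.49, 8.65, 8.47 and 8.56 on the wild-type arrays. Every knockout array was above wild-type array 3, the highest of its group, and the difference was 0.19 with an SE of 0.07, or 1.14-fold with a 95% interval of 1.03- to 1.26-fold (limma adjusted p = 0.693). Of its 37 tested probe sets, which share a transcript and the same arrays, 35 were higher in the knockout. The gene mean without probe set 4540982, described below, still differed by 0.17, and the groups then met at their edges, at 8.729 for the lowest knockout array and 8.732 for the highest wild-type array.

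Dlgap2 stood at 8.81, 8.67, 8.71, 8.69 and 8.66 on the knockout arrays and at 8.55, 8.50, 8.52, 8.46 and 8.60 on the wild-type arrays. The groups were apart, with knockout array 1 the highest of all. The difference was 0.18 with an SE of 0.07, or 1.14-fold (95% interval 1.03 to 1.25, limma adjusted p = 0.693), and 22 of 25 tested probe sets were higher. With the median over a gene's probe sets the differences of Dlgap1 and Dlgap2 were smaller, 0.14 and 0.12, and their unadjusted limma p-values were 0.173 and 0.180.

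Dlgap3, whose protein is known in mice from corticostriatal synapses, stood at 9.06, 9.16, 9.12, 9.17 and 9.11 on the knockout arrays and at 9.26, 9.35, 8.999, 9.14 and 9.25 on the wild-type arrays. Wild-type arrays 1, 2 and 5 lay above all knockout arrays and wild-type array 3 below them. The difference was -0.08 with an SE of 0.08 (limma adjusted p = 0.867), and 7 of 20 probe sets were higher and 13 lower. The 95% interval of the fold, 0.846 to 1.06, overlapped those of Dlgap1 and Dlgap2, which both began at 1.03. With the hypothalamic covariate, whose values separate the genotypes, Dlgap3 differed by 0.10, and no change of direction is read from that fit.

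Of the Shank genes, Shank2 differed most. It stood at 8.13, 8.28, 8.10, 8.19 and 8.03 on the knockout arrays and at 7.88, 8.04, 8.05, 7.89 and 8.04 on the wild-type arrays. Knockout array 5 lay below wild-type arrays 2, 3 and 5, so the groups overlapped there. The difference was 0.16 with an SE of 0.07, or 1.12-fold with a 95% interval of 1.00- to 1.25-fold (limma adjusted p = 0.711), and 23 of 29 tested probe sets were higher. Shank1 ranged from 9.16 to 9.51 in the knockout and from 9.21 to 9.52 in the wild type, and its difference was 0.00 with an SE of 0.09 (limma adjusted p = 0.999). Shank3, at 8.18 to 8.41 in the knockout and 8.20 to 8.47 in the wild type, differed by -0.01 with an SE of 0.08 (limma adjusted p = 0.989). The intervals of the fold were 0.877 to 1.14 for Shank1 and 0.889 to 1.11 for Shank3.

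**Figure D2:**
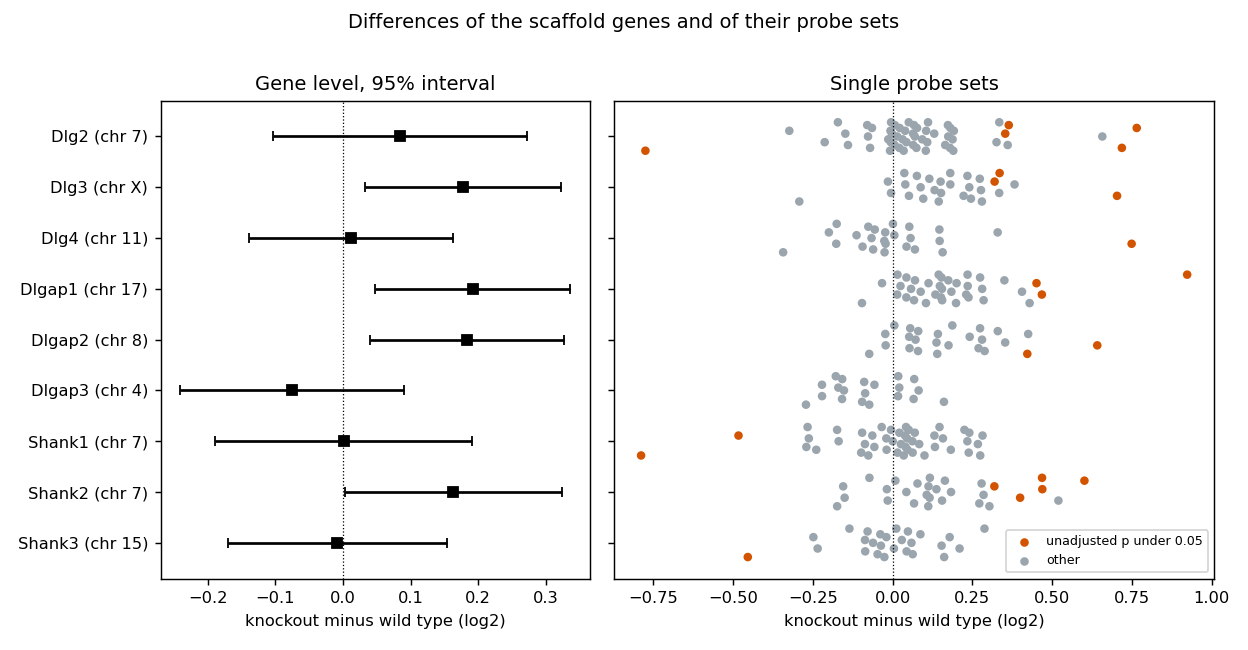
Left, knockout minus wild type (log2) of each gene level with its 95% interval; right, the same difference for each of the 290 tested probe sets, those with an unadjusted limma p under 0.05 in orange. The probe sets of Dlgap1, Dlgap2, Dlg3 and Shank2 lie mostly to the right of 0, while Dlg2 and Shank1 each have 1 probe set far to the left, at -0.77 and -0.79.

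Single probe sets, each covering about 1 exon, showed the same tilt and a few values against it. None of the 290 passed (limma, adjusted over 628415 probe sets, of which 0.00239% passed). An unadjusted limma p under 0.05 was found for 22 (7.59%), where 4.46% of probe sets with a gene name and 5.97% of all tested probe sets had one. Of the 22, 18 were higher in the knockout, beside 2.61% of named and 3.33% of all probe sets, and 4 were lower, beside 1.85% and 2.64%. The difference was above 0 in 202 of the 290 (69.7%), against 53.8% of named and 50.3% of all probe sets. Probe sets of a gene share its transcript and are not replicates of each other.

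The lowest p-values among the members belonged to probe sets that were lower in the knockout, in a pair of genes whose gene levels differed little. Probe set 5370498 of Dlg2 stood at 10.42, 10.08, 10.44, 10.30 and 10.39 on the knockout arrays, against 11.21, 10.95, 11.29, 11.14 and 10.91 on the wild-type arrays. The groups were apart, with the highest knockout array at 10.44 and the lowest wild-type array at 10.91. The difference was -0.77 with an SE of 0.15 (limma adjusted p = 0.463), while the mean of the other 53 tested Dlg2 probe sets differed by 0.10.

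Probe set 4623081 of Shank1 stood at 9.94, 10.12, 9.52, 9.95 and 10.08 on the knockout arrays, against 10.68, 10.84, 10.72, 10.72 and 10.58 on the wild-type arrays. The groups were again apart, knockout array 3 being the lowest. The difference was -0.79 with an SE of 0.15 (limma adjusted p = 0.519), and the other 45 tested Shank1 probe sets differed by 0.02 on average. A further Shank1 probe set, 5028119, lay between 9.04 and 9.42 in the knockout and between 9.46 and 9.95 in the wild type, a difference of -0.48 with an SE of 0.16 (limma adjusted p = 0.793). It was named after its value was seen. With a trended and robust variance prior 5370498 and 4623081 passed, at adjusted p-values of 0.00476 and 0.0105, and in the other 18 settings tried they did not.

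**Figure D3:**
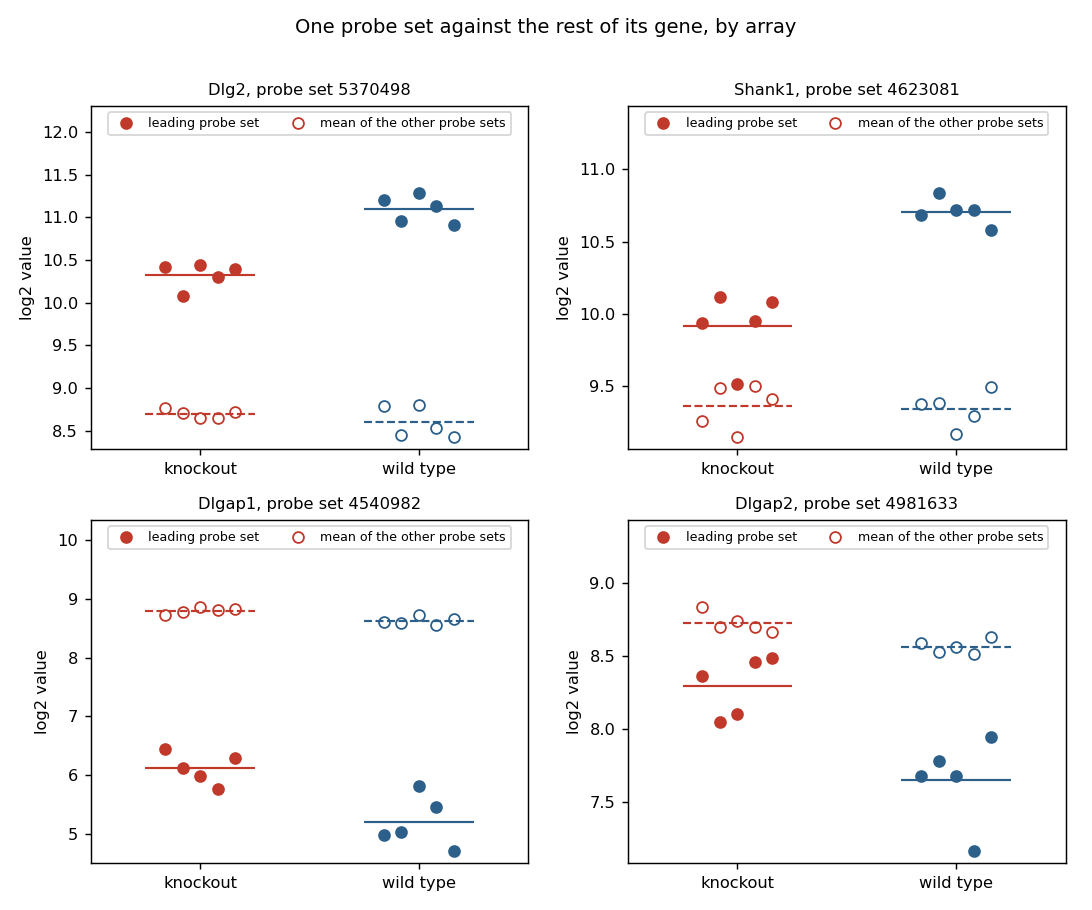
Log2 values by array of the leading probe set (filled, mean as a solid line) and of the mean of the other tested probe sets of the gene (open, mean as a dashed line), knockout left in red and wild type right in blue. In Dlg2 and Shank1 the filled points are lower in the knockout while the open points overlap; in Dlgap1 and Dlgap2 filled and open points are both higher on average in the knockout.

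On the higher side the member probe set of smallest p was 4540982 of Dlgap1, at 6.44, 6.12, 5.98, 5.76 and 6.29 on the knockout arrays and 4.98, 5.02, 5.82, 5.45 and 4.71 on the wild-type arrays. Knockout array 4 lay just below wild-type array 3. The difference was 0.92 with an SE of 0.22 (limma adjusted p = 0.687). Its wild-type arrays averaged 5.20, close to the filter on low values at 4.94, and wild-type array 5 lay below that value. In Dlgap2 probe set 4981633 lay at 8.05 to 8.49 in the knockout and 7.17 to 7.94 in the wild type, without overlap, a difference of 0.64 with an SE of 0.18. In Dlg3 probe set 4390686 lay at 6.09 to 6.95 in the knockout and 5.34 to 6.01 in the wild type, also without overlap, at 0.70 (SE 0.21). Probe sets 4540982 and 4390686 fell below the stricter filter of 6.50 and were not tested with it, while 4981633 was.

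The remaining named probe sets had overlapping groups with 1 exception. On the higher side they differed by 0.76 (SE 0.23) for 5039353 of Dlg2, by 0.75 (SE 0.32) for 5149850 of Dlg4, by 0.47 (SE 0.16) for 4321452 of Shank2, by 0.29 (SE 0.16) for 5109679 of Shank3, by 0.27 (SE 0.15) for 4665220 of Shank1 and by 0.16 (SE 0.14) for 4912086 of Dlgap3. On the lower side 5233661 of Shank3 differed by -0.45 (SE 0.19), 4625468 of Dlg4 by -0.34 (SE 0.19), 5319154 of Dlg3 by -0.29 (SE 0.15), 5403618 of Shank2 by -0.17 (SE 0.14), 5036279 of Dlgap1 by -0.10 (SE 0.14) and 5411572 of Dlgap2 by -0.07 (SE 0.14). The exception was 5168754 of Dlgap3, at 10.25 to 10.56 in the knockout and 10.58 to 10.87 in the wild type, so that every knockout array was below, a difference of -0.27 (SE 0.14). None of these passed. Probe sets 5039353 and 5149850 averaged 5.61 and 5.69 in the wild type, where the filter on low values was 4.94. Both fell below the stricter filter of 6.50, and the others in this paragraph did not.

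Relative use of an exon was read as the value of a probe set minus the mean of the other tested probe sets of its gene on the same array. No member passed this test (Simes p per gene over limma p-values, adjusted over 16367 genes, 0.0367% of which passed). An unadjusted Simes p under 0.05 was found for 2 members, where 5.42% of all genes had one. These were Dlg2 and Shank1. Dlg2 ranked 13 and Shank1 31 among these genes, with adjusted p-values of 0.268 and 0.639. Probe set 5370498 exceeded the rest of Dlg2 by 1.66, 1.37, 1.79, 1.65 and 1.67 on the knockout arrays and by 2.43, 2.51, 2.49, 2.61 and 2.49 on the wild-type arrays, a difference of -0.87. Probe set 4623081 exceeded the rest of Shank1 by 0.67, 0.63, 0.36, 0.45 and 0.67 on the knockout arrays and by 1.31, 1.45, 1.55, 1.42 and 1.09 on the wild-type arrays, a difference of -0.81. In both genes the groups were apart on this scale, which uses the same values as the probe set differences above.

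In the other 7 members the leading probe set differed in relative use by 0.77 for Dlg4, 0.75 for Dlgap1, 0.48 for Dlgap2, 0.25 for Dlgap3, -0.49 for Dlg3, -0.46 for Shank3 and -0.35 for Shank2, with adjusted Simes p-values of 0.918 or more. Among these, the groups were apart in Dlgap2 and overlapped in the other 6. With limma's diffSplice, which takes a single variance for all probe sets of a gene, 3 members passed, where 1.69% of all genes did. Their limma adjusted Simes p-values were 0.00692 for Dlg4, 0.0268 for Shank1 and 0.0366 for Dlgap1, and that of Dlg2 was 0.0515. The leading probe set of Dlg4, 5149850, varied widely on the wild-type arrays, with 6.04, 4.41, 6.12, 6.23 and 5.64 there and 5.75, 6.62, 6.63, 6.45 and 6.72 on the knockout arrays. Without wild-type array 2 its difference in relative use was 0.44. Probe sets 5149850 of Dlg4 and 4540982 of Dlgap1 had low values, at -4.46 and -3.43 relative to their genes on the wild-type arrays. Both fell below the stricter filter of 6.50, so their relative use was not tested with it.

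Shank1, Dlg2 and Shank2 lie on chromosome 7, which carries Klk8. Counting tested genes in the reference order, Shank1 is 14 genes from Klk8, Dlg2 308 and Shank2 831, all on the same side. Of the 129 tested probe sets of these 3 genes, 3 had groups apart with the knockout below, 1 of Dlg2 and 2 of Shank1, and 1 of the 161 probe sets of the other 6 members did, against 0.361% of named probe sets. The groups were apart with the knockout above in 1 of the 129 and 4 of the 161, against 0.696%. The median difference was 0.06 for the chromosome 7 members and 0.07 for the others. All 6 genes that passed the test of relative use over the whole table, Emc10, Mef2a, Rps3, 2410002F23Rik, Arntl and Plekhb1, lie on chromosome 7, between 11 and 472 tested genes from Klk8, and each had a leading probe set lower in the knockout. The part that a position on the chromosome of Klk8 has in the Dlg2 and Shank1 values was not tested.

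The genes next to these members did not pass either. Around Shank1, Acp4 differed by -0.04 (SE 0.11), Clec11a, a secreted lectin-like growth factor gene, by 0.11 (SE 0.12), 1700008O03Rik by 0.03 (SE 0.15) and Syt3, a synaptotagmin gene, by 0.00 (SE 0.08). Around Dlg2, Tmem126a differed by 0.31 (SE 0.20), Tmem126b by -0.06 (SE 0.14), Ccdc90b by 0.03 (SE 0.16) and Ankrd42 by 0.12 (SE 0.06). Around Shank2, Nadsyn1 differed by -0.04 (SE 0.08), Dhcr7, an enzyme of cholesterol synthesis, by -0.09 (SE 0.10), Ppfia1 by 0.11 (SE 0.09), and Cttn, the gene of the actin-binding protein cortactin, which Shank proteins bind, by 0.19 (SE 0.08). The groups overlapped in all 12 genes.

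Other genes of the postsynaptic density tilted the same way without passing. Of 69 listed genes 66 were measured, and none passed in either direction. The difference was above 0 in 50 of the 66, against 49.3% of all genes, with a median of 0.07. An unadjusted limma p under 0.05 was found for 7, all of them higher in the knockout, beside 2.84% of all genes. The knockout arrays lay all above the wild-type arrays in 4, as they did in 0.923% of all genes. By role, 13 of 14 receptor and channel genes were higher, with a median of 0.14, as were 14 of 18 further scaffold genes (median 0.06), 7 of 9 adhesion genes (0.04), 7 of 12 partners of Shank and SAPAP (0.05) and 3 of 5 genes of protein targeting (0.00).

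The listed genes of smallest p on the higher side were Grin2b, Kalrn and Tiam1. Grin2b, an NMDA receptor subunit gene whose protein binds the PSD-95 family, averaged 9.68 in the knockout and 9.44 in the wild type, a difference of 0.24 (SE 0.07, limma adjusted p = 0.582). Kalrn, whose protein kalirin is found in dendritic spines, averaged 8.74 in the knockout and 8.48 in the wild type, a difference of 0.25 (SE 0.08, limma adjusted p = 0.614). In Grin2b and Kalrn the knockout arrays were all above the wild-type arrays. Tiam1, a Rac exchange factor gene, differed by 0.22 (SE 0.08) with overlap. On the lower side Abhd17a, which encodes a depalmitoylating enzyme of PSD-95, differed by -0.23 (SE 0.11), Cacng2, the gene of the AMPA receptor partner stargazin, by -0.12 (SE 0.09) and Grip2, a PDZ scaffold gene, by -0.10 (SE 0.10).

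Marker lists of tissue and cell types were read beside these values, as mean gene levels centred over the 10 arrays. The mean of the 3 SAPAP genes lay between 0.04 and 0.07 on the knockout arrays and between -0.11 and 0.00 on the wild-type arrays, without overlap. It holds Dlgap1 and Dlgap2, whose groups were apart by themselves, and Dlgap3, which was lower in the knockout (-0.08). The mean of the 3 PSD-95 family genes lay between 0.01 and 0.09 in the knockout and between -0.10 and 0.02 in the wild type, and that of the 3 Shank genes between -0.11 and 0.14 in the knockout and between -0.12 and 0.04 in the wild type. All 8 measured pan-neuronal genes were higher in the knockout, at a list mean of -0.01 to 0.09 against -0.19 to 0.10 in the wild type, and 8 of 10 cortical and excitatory neuron genes were, at -0.03 to 0.08 against -0.16 to 0.05. The pan-neuronal genes of smallest p were Stmn2 (0.11, SE 0.07) and Eno2 (0.07, SE 0.07), and the excitatory ones Slc17a7, the vesicular glutamate transporter gene (0.24, SE 0.09), and Neurod2 (0.18, SE 0.09).

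Marker genes of hypothalamus, striatum and intercalated cells, glia and vessels had differences mostly below 0, where 49.3% of all genes were above 0. Of hypothalamic genes 11 of 12 were lower, 7 of them with an unadjusted limma p under 0.05. In either direction 6.98% of all genes had such a value. The list mean lay at -0.28 to -0.13 in the knockout and 0.05 to 0.43 in the wild type, without overlap. The melanin-concentrating hormone gene Pmch differed by -1.88 (SE 0.39) and the oxytocin gene Oxt by -0.63 (SE 0.16). Of striatal and intercalated cell genes 13 of 14 were lower, at -0.46 (array 4) to 0.06 in the knockout and -0.14 to 0.23 in the wild type, with Rasd2 at -0.23 (SE 0.08) and Isl1 at -0.35 (SE 0.15). All 10 myelin genes were lower, at -0.41 to -0.02 in the knockout and -0.41 to 0.48 in the wild type, with Fa2h at -0.33 (SE 0.13) and Cldn11 at -0.28 (SE 0.11). Astrocyte genes (6 of 8 lower, Slc1a3 at 0.16 and Slc4a4 at -0.10), microglial genes (8 of 8 lower, Cx3cr1 at -0.14 and C1qb at -0.15) and vessel genes (4 of 6 lower, Pdgfrb at -0.07 and Kdr at -0.09) had overlapping ranges. No gene of these lists passed.

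**Figure D4:**
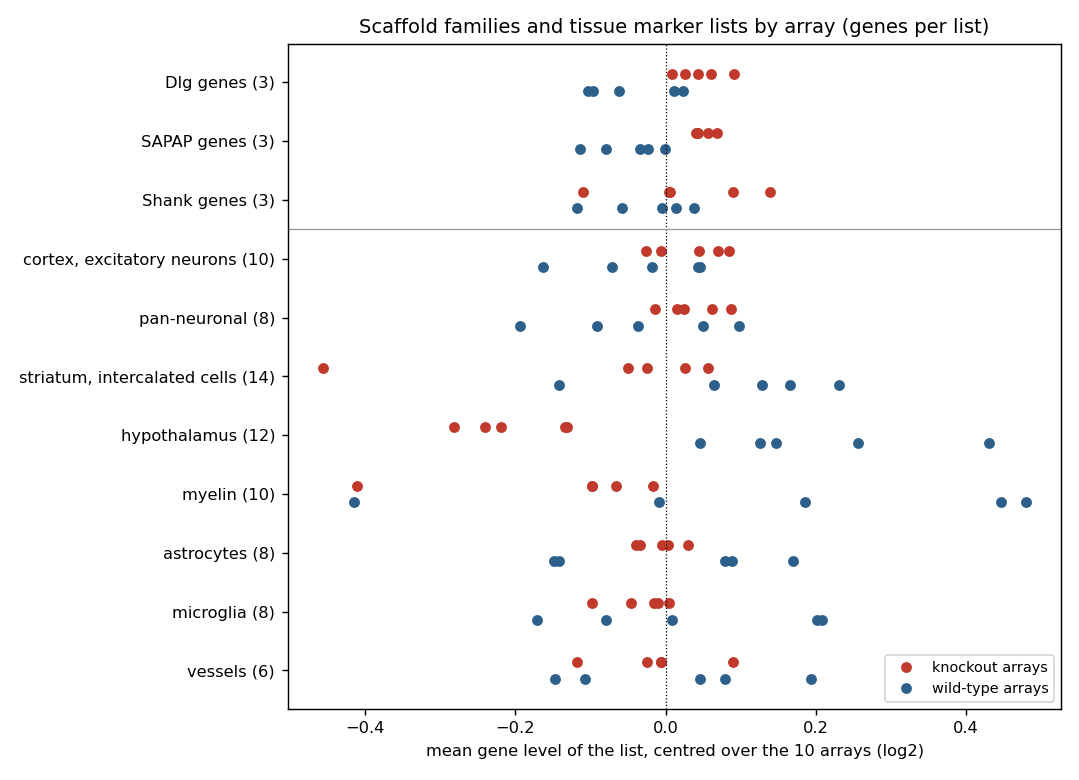
Mean gene level, centred over the 10 arrays (log2), of the 3 scaffold families (above the line) and of 8 marker lists, with the 5 knockout arrays in red above the 5 wild-type arrays in blue and the number of genes in brackets. The mean of the SAPAP genes lies to the right in the knockout and that of the hypothalamic genes to the left. In each case there is no overlap, while the other rows overlap.

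Of 9 markers chosen for the labelled tissue, the amygdala, 8 were above the filter on low values. They were split, 4 higher and 4 lower, with Cck at 0.21 (SE 0.07) and Dlk1 at -0.25 (SE 0.09), and their mean lay at -0.06 to 0.04 in the knockout and -0.08 to 0.06 in the wild type. With the striatal list mean as a covariate the differences of Dlgap1, Dlgap2, Dlg3 and Shank2 were 0.19, 0.18, 0.19 and 0.14. With the hypothalamic list mean, whose values separate the genotypes, they were 0.15, 0.19, 0.12 and 0.18. The other 5 members were then higher as well, Shank3 by 0.26, Dlg2 by 0.25, Shank1 by 0.20, Dlg4 by 0.17 and Dlgap3 by 0.10, so the order of the members differed from that without the covariate. No member had an unadjusted p under 0.05 in that fit, and the p-values ran from 0.0984 (Shank3) to 0.547 (Dlgap3). The part of the tissue mix in the members' differences was not tested beyond these fits.

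After removal of genotype means, the genes whose level followed the mean of the 9 members most closely over the 10 arrays were Csdc2 (Pearson r = 0.924), an RNA-binding cold shock domain gene, Pdcd7 (0.922), A730035I17Rik (0.920), Tbc1d1 (0.920), a Rab GTPase-activating protein gene, and G630018N14Rik (0.919). These were picked as the highest values among all genes tested, over arrays that share tissue and processing, and are a description. The differences of these 5 genes between knockout and wild type were -0.03 to 0.19.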

How the data were processed

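Mouse exon arrays, 5 per genotype, were analysed. The authors deposited RMA values on the log2 scale for each probe set, computed in Affymetrix Expression Console, per the labels' descriptions. RMA subtracts background, quantile-normalizes and summarizes probes, so a difference is relative to the bulk of probe sets. Its version is not given in the sources used here, nor is the array build. The number of arrays limits the precision. Scan days were not used here.

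Of 1256831 probe sets, 318760 had 1 gene symbol and 6684 had several, which named no gene. Symbols were updated through unique RefSeq synonyms (GRCm38.p6). Probe sets with a mean above the median (4.94) were tested, 628415 in all, as were 16367 genes with at least 3 of them. limma 3.58.1 in R 4.3.3 (lmFit, eBayes, two-sided, Benjamini-Hochberg over all features, threshold 0.05) compared the genotypes. Relative exon use had a variance for each probe set and a Simes p for each gene. Scripts were tested on simulated data. Counts for 1 role group of the postsynaptic density list are not reported here. The genes named were the members, their probe sets of smallest p in each direction and in relative use, 3 other postsynaptic density genes in each direction, 2 neighbours on either side on chromosome 7, 2 genes of each marker list and the 5 genes most like the members. Members and lists were chosen with earlier results of these data known. Alternatives changed normalization, filters (75th percentile, 6.50), arrays, weights, variance prior, gene summary, covariates, the replicate block and the exon test (diffSplice).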

Additional observations from a re-analysis of the deposited data

Results flagged for a closer look

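Among 56 sets of 5 values (the 9 gene levels, the named probe sets and the Klk8 level, each genotype apart), 5 held an array far from the other 4 by Dixon's ratio, where chance gives about 1 in 20. The Dlg3 gene level was 9.06 on knockout array 1 and 9.11 to 9.12 on the other knockout arrays. Dlg3 probe set 4390686 was at 5.34 on wild-type array 2 and at 5.89 to 6.01 on the other wild-type arrays. Dlg4 probe set 5149850 was at 5.75 on knockout array 1 and at 6.45 to 6.72 on the others. Dlgap2 probe set 5411572 was at 8.10 on wild-type array 3 and at 8.29 to 8.35 on the others. Shank1 probe set 4665220 was at 9.38 on knockout array 3 and at 9.66 to 9.76 on the others.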

How the results depend on the processing

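No member passed at the gene level in the 24 other settings, and Dlg3, Dlgap1, Dlgap2 and Shank2 stayed above 0 in all of them, at 0.12 to 0.21, 0.14 to 0.22, 0.12 to 0.21 and 0.13 to 0.19. Members higher in the knockout numbered 5 to 9. Members with an unadjusted p under 0.05 numbered 4 as reported, 2 to 4 with 1 array left out (2 without wild-type array 1), 1 with the median over probe sets (Dlg3), 1 without arrays 4 and 5 of both genotypes (chosen after seeing the data) and 0 with the hypothalamic list mean as a covariate. All genes past the threshold numbered 4 as reported, 2 to 6 with 1 array left out (2 without knockout array 2, 3 or 5), 2 with at least 1 probe set per gene, 2 without arrays 4 and 5 of both genotypes and 0 with the hypothalamic covariate. All probe sets past it numbered 15 as reported, 2 to 9 with 1 array left out, 3 after quantile normalization again, 2 with no intensity filter, 66 with the stricter filter, 3 without wild-type arrays 4 and 5, 102 with the trended and robust prior and 0 without arrays 4 and 5 of both genotypes. With that prior 2 member probe sets passed. In relative use 6 genes passed as reported, 2 to 6 with 1 array left out, 2 without wild-type arrays 4 and 5, 10 with the trended and robust prior (1 a member, Dlg2), 276 with diffSplice (3 of them members) and 0 without arrays 4 and 5 of both genotypes. The cause of these shifts was not tested.

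Members near 0 changed sign. With 1 array left out the ranges were -0.013 to 0.044 for Dlg4, -0.041 to 0.055 for Shank1 and -0.043 to 0.029 for Shank3. Without changing sign, Dlg2 ran from 0.042 (without wild-type array 5) to 0.13 (without wild-type array 3), Dlgap3 from -0.13 (without wild-type array 3) to -0.037 (without wild-type array 2), Cacng2 from -0.18 (without wild-type array 4) to -0.053 (without wild-type array 1) and Grip2 from -0.14 (without knockout array 3) to -0.024 (without knockout array 4). Shank1 was at -0.0076 after quantile normalization again, -0.011 with the stricter filter, -0.055 with the median over probe sets, -0.079 with the striatal covariate and -0.030 without arrays 4 and 5 of both genotypes. Dlg4 was at -0.0084 with the stricter filter, -0.0073 without wild-type arrays 4 and 5, -0.0041 with the striatal covariate and -0.051 without arrays 4 and 5 of both genotypes. Shank3 was at 0.0067 with arrays centred on their medians, 0.0013 with the stricter filter and 0.26 with the hypothalamic covariate. With the median over probe sets Dlg2 was at -0.038, Dlgap3 at 0.026 and Cacng2 at 0.17. With the hypothalamic covariate Dlgap3 was at 0.10, Abhd17a at 0.14 and Cacng2 at 0.18, and Grip2 was at 0.029 with the striatal covariate. Klk8 differed by -0.25 to -0.04 with 1 array left out, by -0.39 over the probe sets above the filter and by -0.61 with the median over probe sets (exact permutation p = 0.0794). The cause was not tested.

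With the replicate number as a block no member passed, no probe set passed (0) and 2 genes passed in relative use. Same-numbered arrays deviated together at correlations of 0.28, 0.08, 0.27, 0.41 and 0.24 over genes, and knockout arrays 1 to 4 were each closest to the wild-type array of their own number, knockout array 5 to wild-type array 4. This is a hint of pairing from the data. Since the labels give no shared origin, the fit without the block was kept. The pairing was not tested further.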
